A study of Mus musculus with 4 samples.

Results

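The cytosolic ribosomal protein genes are the 82 protein-coding genes, of 53801 genes listed, whose symbols are Rpl or Rps with a number, together with Rpsa, Rplp0, Rplp1 and Rplp2. They were taken by symbol and gene type alone, though the list was chosen with earlier results of these data known. The list holds 50 genes of the large subunit, 3 of them the acidic stalk proteins, and 32 of the small subunit. It leaves out Fau and Rack1, whose products also sit on the ribosome, and these are given beside the list.

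RNA of mouse blood cells was sequenced in 2 tumour models with 1 library per group and 4 libraries in all. B16 is a melanoma line and CT-26 a colon carcinoma line. In each model one library holds multimer-binding CD8+ circulating tumor-reactive lymphocytes (CTRL), sorted by their binding to MHC multimers, and the other is labelled the residual of the CD8+ lymphocytes. All 4 groups are primary cells from peripheral blood mononuclear cells of animals labelled WT. Strain, age, time after tumour implantation and the number of animals behind a library are not given in the labels, nor whether the residual is the unbound CD8+ cells. The tumour lines come from different mouse strains, so that the model, any strain of the hosts and the library cannot be told apart.

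In B16 the residual library held 39068457 reads in genes and the CTRL library 37166063, and in CT-26 they held 50823018 and 74879891. Where 4 values follow each other they keep this order. The libraries labelled residual went against the CD8+ label. Cd8a was at 1.66 and 8.78 CPM (counts per 1000000 reads in genes) in the B16 and CT-26 residual libraries, against 424 and 735 CPM in the CTRL libraries. Haemoglobin genes took 42.0% of reads in the B16 residual library and 1.28% in its CTRL library, and 10.8% and 0.630% in those of CT-26. Summed over 13 erythroid markers, the level was 430900, 13530, 110000 and 6538 CPM in the same order, with 1 marker at 0 in each of the last 3 libraries. The sum of 10 neutrophil markers was 9940, 345, 9597 and 108 CPM, with 3 at 0 in B16 CTRL. The sum of 12 B-cell markers was 1075, 8941, 1115 and 323 CPM and that of 12 T-cell markers 646, 4802, 2074 and 8505 CPM, with none at 0. The B16 CTRL library thus held more B-cell than T-cell marker reads, so it too was mixed. For 8 monocyte markers the sum was 5102, 3313, 9620 and 348 CPM, with none at 0. For 6 NK-cell markers it was 309, 260, 1733 and 233.5 CPM, and for 8 platelet markers 653, 80.9, 96.55 and 15.5 CPM. In each of these, 1 marker was at 0 in CT-26 CTRL. For 6 plasma-cell markers it was 213, 211, 1101 and 137.5 CPM, with 1 at 0 in B16 CTRL. Each ratio below therefore sets a CTRL library against a library of other composition, and the part of composition in any of them was not tested. In such bulk libraries fewer cells of a type and less RNA per cell cannot be told apart.

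Each ribosome carries 1 copy of nearly every protein of its large and small subunit. Their mRNAs, and those of several translation factors, begin with a run of pyrimidines, the 5′ terminal oligopyrimidine (TOP) motif, through which the kinase mTOR and the binding protein Larp1 control their translation together. Translation control of this kind changes use of an mRNA and not necessarily its amount, and read counts measure only the amount. Lymphocytes build ribosomes as they grow and divide, and red cell precursors are known for a strong need of ribosomal proteins.

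The sequence around the transcription start was not used by the choice by symbol, and is described here beside that of all genes. RefSeq promoter windows (GRCm38.p6, 250 bases before to 50 after the annotated start) matched 62 of 82 members by symbol, with 74 windows of 32851. A run of 8 or more C or T on the sense strand, within 50 bases of the start, was in 78.4% of member windows, 32.2% of windows of measured protein-coding genes and 35.7% of all windows. The letters CTTTCC, which fall inside many such runs, were in 31.1%, 4.23% and 4.69% of the same windows. CCGGAAG, searched on both strands of the whole window, was in 36.5%, 19.2% and 8.86%, and AAGATGG, searched likewise, was in 14.9%, 7.68% and 6.34%. The letters TATAAA, searched on the sense strand in the 50 bases before the start, were in 0 of 74 member windows, against 1.29% of windows of measured coding genes and 2.63% of all windows. A match is a run of letters, not a shown binding site or start.

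The windows printed here run from 10 bases before to 20 bases into the annotated transcript, 5′ to 3′ on the strand of the gene, with the longest C/T run of 5 or more bases in capitals. They are shown for some of the members with the lowest and highest CTRL-to-residual ratios and for the paralog pairs described further on, so that the tract can be set beside the values. The genes are Rps27 (chr3:90213629-90213658, minus strand), Rps27l (chr9:66946076-66946105, plus), Rpl38 (chr11:114668570-114668599, plus), Rplp2 (chr7:141447641-141447670, plus), Rps24 (chr14:24490668-24490697, plus), Rps12 (chr10:23787190-23787219, minus), Rpl41 (chr10:128549149-128549178, minus), Rpl4 (chr9:64173377-64173406, plus), Rps7 (chr12:28635934-28635963, minus), Rps19 (chr7:24884582-24884611, plus, the first of its 3 windows) and Rpl3l (chr17:24727816-24727845, plus).
Rps27: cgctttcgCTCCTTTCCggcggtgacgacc
Rps27l: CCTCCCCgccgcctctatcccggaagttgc
Rpl38: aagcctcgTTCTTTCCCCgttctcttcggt
Rplp2: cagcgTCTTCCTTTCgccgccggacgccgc
Rps24: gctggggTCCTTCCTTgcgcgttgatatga
Rps12: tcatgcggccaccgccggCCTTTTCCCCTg
Rpl41: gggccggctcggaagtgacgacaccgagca
Rpl4: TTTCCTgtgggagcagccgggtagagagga
Rps7: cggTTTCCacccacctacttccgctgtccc
Rps19: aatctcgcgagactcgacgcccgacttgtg
Rpl3l: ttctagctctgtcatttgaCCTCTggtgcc
At the low end of the B16 ratios, the printed windows of Rps24, Rps12, Rpl38 and Rplp2 carry a run of 9 to 11 bases. The runs of Rps24, Rpl38 and Rplp2 begin 2 to 5 bases before the annotated start and cross it. The run of Rps12 follows the first 8 bases of the annotated transcript, so it is not at the 5′ end there. The printed window of Rps27l carries a run of 7 that begins at the edge of the window, and that of Rpl41 carries none. The second windows of Rps24 and Rps27l, not printed, have a longest run of 7 and 0 bases. Other members called lower in B16 have windows that are not printed. By window, the longest run was 7 and 0 bases for Rps21, 8 for Rpl39, 13 and 6 for Rpl34, and 0, 13 and 5 for Rpl35a. The run of 13 of Rpl34 begins at the edge of its window. At the high end, Rpl4 has a run of 6 bases that begins at the edge of its window, and Rps7 one of 5. Rps19 has none in this window or in its second. The printed windows are short, however. Within 50 bases of the start, Rpl41, Rpl4, Rps7 and the first and second windows of Rps19 each held a run of 8 or more C or T. So did Rps24, Rps12, Rpl38, Rplp2 and the first window of Rps27l, but not its second. Whether the tract differs between the low and high ends was not tested. Annotated starts may not be those used in these cells.

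Reads in the 82 genes came to 789713 and 1292068 in B16, residual first, and to 841160 and 1917488 in CT-26. That was 2.02% (95% exact Clopper-Pearson interval 2.02 to 2.03) of reads in genes in the B16 residual library and 3.48% (3.47 to 3.48) in B16 CTRL. It was 1.66% (1.65 to 1.66) in the CT-26 residual library and 2.56% (2.56 to 2.56) in CT-26 CTRL. The intervals hold for counting error alone: PCR copies were not told apart by molecular identifiers. Taken so, the share was higher in CTRL than in the residual library of the same model, by 1.72-fold in B16 and 1.55-fold in CT-26.

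The B16 difference in share depended on whether haemoglobin reads were counted in the total. Outside haemoglobin genes the members took 3.49% and 3.52% of reads in the B16 residual and CTRL libraries, a ratio of 1.01. In CT-26 they took 1.86% and 2.58%, a ratio of 1.39. Among protein-coding genes without haemoglobin and mitochondrially encoded genes the CTRL-to-residual ratio was 0.988 in B16 and 1.37 in CT-26. By that measure the difference between the CTRL and residual libraries was larger in CT-26, and both B16 libraries (3.70% and 3.66%) lay above both CT-26 libraries (1.93% and 2.65%).

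**Figure D1:**
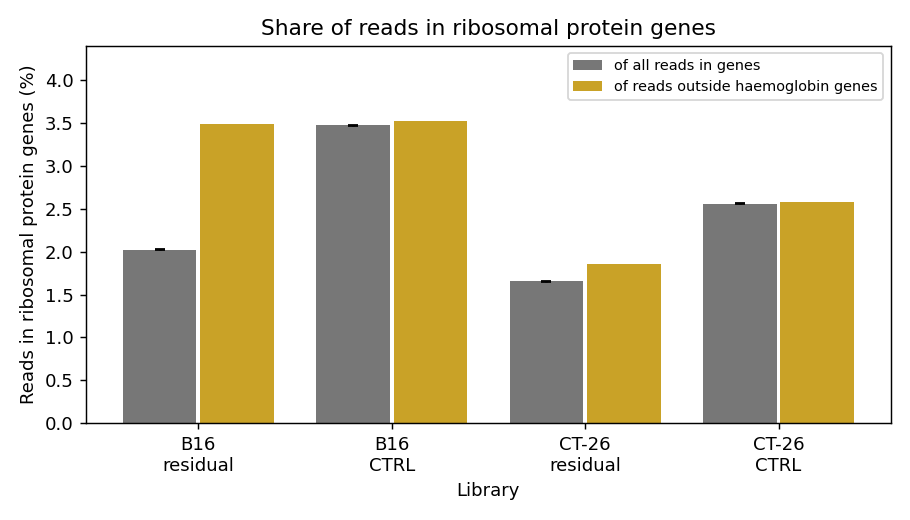
Reads in the 82 ribosomal protein genes as a percent of all reads in genes (grey, with exact 95% counting intervals that are barely wider than the line) and of reads outside haemoglobin genes (yellow), for the 4 libraries. The grey bars of B16 are at 2.02% and 3.48% and its yellow bars at 3.49% and 3.52%, while both colours are higher in CT-26 CTRL than in CT-26 residual.

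Reads were spread unevenly over the list. Rpl10l, a copy of the X-linked Rpl10 known from the testis, had 0 reads in every library, which allows up to 3 reads in each. The other 81 members had reads in all 4 libraries, and 4 members (Rpl3l, Rpl10l, Rpl36al and Rpl39l) reached 10 CPM in none. Per kilobase of annotated transcript, averaged over the 4 libraries, the highest levels were 1650 CPM per kb for Rpl13, 1628 for Rps27 and 1137 for Rps9. The lowest were Rpl10l at 0, Rpl39l at 0.198 and Rpl3l at 1.47 CPM per kb, followed by Rpl24 at 11.5 and Rpl13a at 12.99. The annotation has other genes, with 0 reads here, on exons of Rpl24 and Rpl13a, and whether counting set reads of shared exons aside was not tested.

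For the change between libraries, the measure was log2 of CTRL over residual normalized read counts, with 1 added to each. A gene was at level with at least 10 CPM in the higher library, and was called when its log2 ratio was also at least 1 in size. With 1 library per group this is a rule of size and no test. In B16, 78 members were at level, with a median log2 ratio of -0.13 (quartiles -0.45 to 0.21), and 31 of them were above 0. Scaled instead to all reads in genes, haemoglobin included, the B16 median turned to 0.72, with 67 of 78 above 0. In CT-26, 77 were at level, with a median of 0.32 (quartiles 0.13 to 0.59), and 67 were above 0; this direction held under the scaling to all reads, at 0.51. Over all genes at level the medians were 0.47 in B16 and 0.23 in CT-26, and 69.5% and 60.3% of genes were above 0. Scaling to all reads moves the median of all genes by 0.84 in B16 and 0.19 in CT-26, and leaves the members' median 0.60 below it in B16 and 0.09 above it in CT-26. Any B16 ratio named in the following that is below 0 by less than 0.84 has the opposite sign under that scaling.

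Few members passed the rule of size. In B16, 0 members were called higher and 11 lower, beside 26.8% and 11.7% of all 9289 genes at level (38.5% in either direction). In CT-26, 3 were called higher and 1 lower, beside 14.5% and 16.3% of 9514 genes (30.9% in either direction). Among the 3, Rpl29 reached 10 CPM only in CTRL, at 12.4 CPM against 4.27 in residual. With a limit of 50 CPM, 2 were called higher in CT-26. The members' log2 ratios had a SD of 0.59 in B16 and 0.40 in CT-26, against 1.47 and 1.77 over all genes at level. Within 1.5-fold of each other in the 2 libraries were 76.9% of members in B16 and 72.7% in CT-26, against 38.9% and 47.0% of all genes. Scaled to all reads, the B16 counts turned to 23 members called higher and 0 lower. The median of all genes at level was then 1.315, itself past the limit of the rule. The 23 are thus no gain of the members over other genes, and the share of all genes called under that scaling was not counted.

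**Figure D2:**
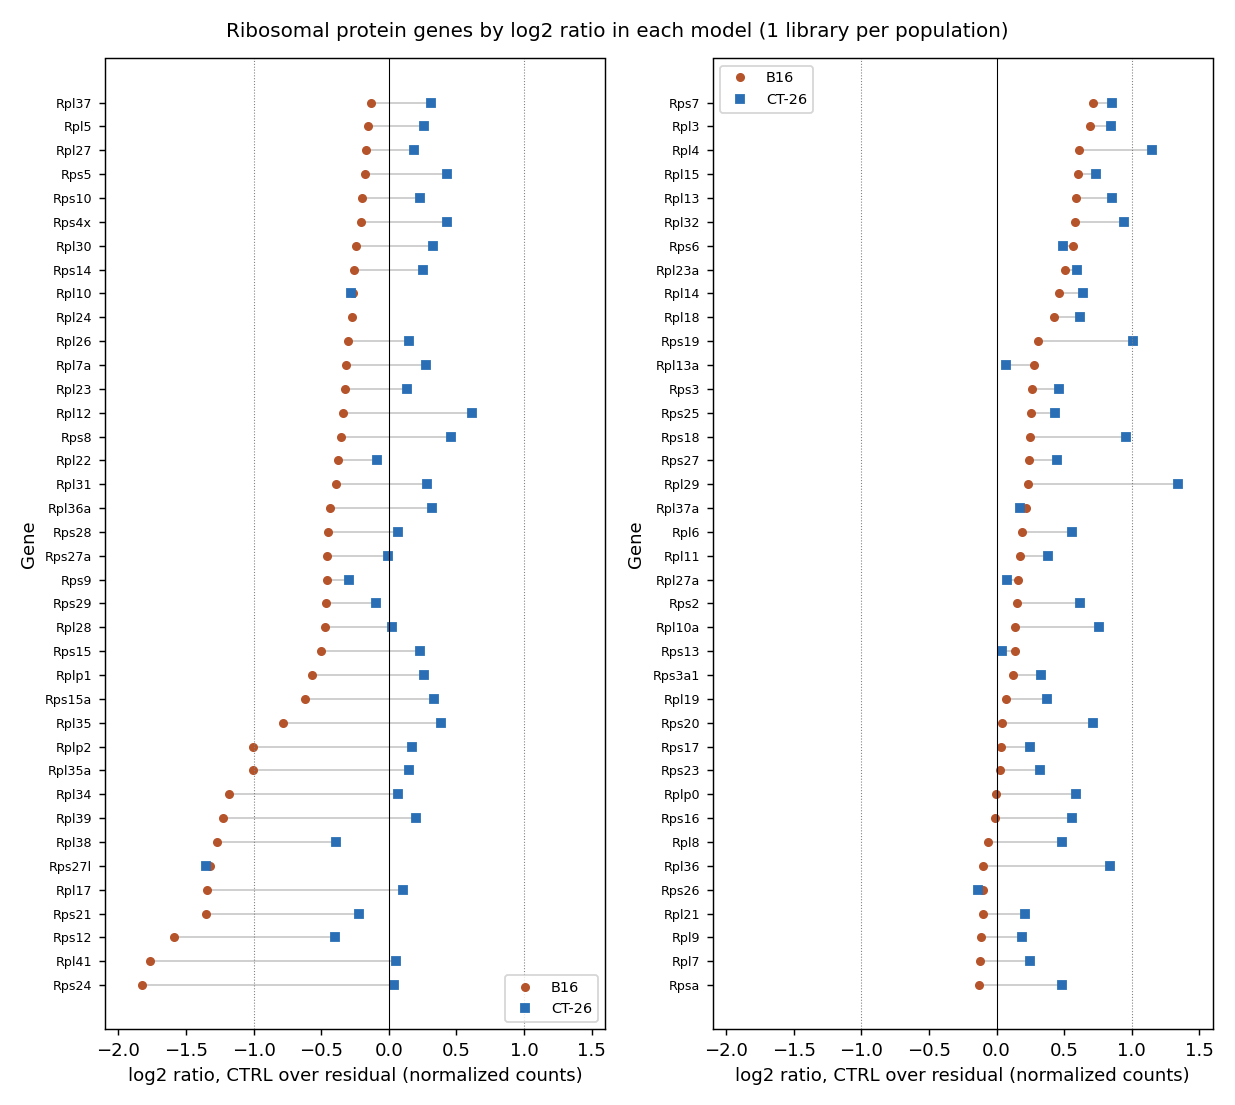
Log2 ratio of CTRL over residual normalized counts for members at level, apart from a few not reported here, in B16 (circles) and CT-26 (squares), ordered by the B16 value, with dotted lines at 2-fold and 1 library per population. The B16 values run from -1.82 to 0.71 and the CT-26 values from -1.36 to 1.34; most CT-26 squares lie to the right of their B16 circle, and scaling to all reads shifts every B16 value up by 0.84.

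Among small-subunit genes in B16, 0 of 32 were called higher and 4 lower, beside 26.8% and 11.7% of all genes at level. The count called lower is near that share. Rps24, a protein whose human gene is mutated in Diamond-Blackfan anaemia, had 21942 and 6199 normalized counts in the B16 residual and CTRL libraries. In CT-26 it had 16946 and 17446. The log2 ratio was -1.82 (counting interval -1.86 to -1.79) in B16, the lowest of all members, and 0.04 (0.01 to 0.07) in CT-26.

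Rps12, a small-subunit protein, had 10101 and 3363 normalized counts in B16 residual and CTRL, and 9040 and 6863 in CT-26. Its CTRL library was the lower in both models, at a log2 ratio of -1.59 in B16 and -0.40 in CT-26. Rps21 had 8457 and 3319 in B16 and 7276 and 6252 in CT-26, for log2 ratios of -1.35 and -0.22. Scaled to all reads, neither is called in B16, and both stay below 0 there.

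At the upper end of the small subunit stood Rps7, which is likewise a Diamond-Blackfan gene in humans, with 10851 and 17788 normalized counts in B16 and 13635 and 24700.3 in CT-26. The CTRL library was the higher in both models, with log2 ratios of 0.71 and 0.86, both short of 2-fold.

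Rps19, the gene most often mutated in human Diamond-Blackfan anaemia, was the 1 small-subunit member called higher in CT-26. It had 26249 and 52887 normalized counts there, a log2 ratio of 1.01 (0.99 to 1.03), against 26774 and 33156 in B16, a ratio of 0.31. The CT-26 value sits at the limit of the rule. Rps18 lay just short of it at 0.96 in CT-26 and 0.24 in B16. Rps6, the substrate of S6 kinase, was at 0.57 in B16 and 0.49 in CT-26, one of the 8 members with the larger ratio in B16. Rps9, one of the most abundant members, was below 0 in both models, at -0.46 and -0.30, the former turning above 0 when scaled to all reads.

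Among the large-subunit genes, 0 of 46 were called higher and 7 lower in B16, and 2 of 45 higher and 0 lower in CT-26. Of all genes at level, 26.8% were called higher and 11.7% lower in B16, and 14.5% and 16.3% in CT-26, so the B16 count called lower is near that share. Rpl41, which encodes the shortest ribosomal protein, had 30987 and 9123 normalized counts in B16 residual and CTRL and 21636 and 22401 in CT-26. Its log2 ratio was -1.76 (-1.80 to -1.73) in B16 and 0.05 (0.02 to 0.08) in CT-26. As a share of all member reads it took 3.004% and 0.922% in B16, residual first, and 1.98% and 1.52% in CT-26, and Rps24 2.13%, 0.627%, 1.55% and 1.18%. For both genes the B16 libraries were the highest and the lowest of the 4.

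Rpl17 (-1.34), Rpl38 (-1.27), Rpl39 (-1.23), Rpl34 (-1.18) and Rpl35a (-1.01) were called lower in B16 as well. Rpl38, which in the mouse is known for its need in translating Hox mRNAs, had 10971 and 4556 normalized counts in B16 and 9245 and 7048 in CT-26. It was the 1 large-subunit member called in B16 that was also clearly below 0 in CT-26, at -0.39 (-0.44 to -0.35). Rpl17, Rpl39, Rpl34 and Rpl35a lay between 0.07 and 0.20 in CT-26.

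Rpl4, a protein that lines the exit tunnel for the growing chain, had 26298 and 40055 normalized counts in B16 and 37272 and 82672 in CT-26. It was among the 5 highest members in both models, at log2 ratios of 0.61 (0.58 to 0.63) and 1.15 (1.13 to 1.17), and was called in CT-26. Rpl3, which reaches towards the peptidyl transferase centre, had 15374 and 24824 in B16 and 16639 and 29924 in CT-26, at 0.69 and 0.85. Rpl32 was at 0.58 and 0.94 and Rpl15 at 0.60 and 0.73. Rpl5 and Rpl11, which with 5S rRNA bind and restrain Mdm2, stayed near 1-fold, at -0.15 and 0.17 in B16 and 0.26 and 0.38 in CT-26.

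The stalk proteins, which recruit the elongation factors to the ribosome, differed among themselves in B16. Rplp0 had 34234 and 34080.2 normalized counts in B16, a log2 ratio of -0.01, and 23719 and 35604 in CT-26, a ratio of 0.59. Rplp1 was at -0.57 in B16 and 0.26 in CT-26. Rplp2 had 23813 and 11848 in B16, a ratio of -1.01 (-1.04 to -0.98) at the limit of the rule, and 18129 and 20422 in CT-26, a ratio of 0.17. The B16 ratio was thus near 0 for Rplp0, the base of the stalk, and below 0 for its dimer partners, of which Rplp1 turns above 0 when scaled to all reads.

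Short genes were called lower in B16 more often than long ones, among members and among other coding genes alike. Of the 11 called lower, 10 had a coding length of at most 450 nt, while 37 of the 78 members at level are that short; Rpl17, at 552 nt, is the exception. Members of at most 300 nt had a median log2 ratio of -0.85 in B16 (10 genes, 5 called lower, beside 27.7% of other protein-coding genes of that length). The median was -0.32 from 300 to 450 nt (27 genes, 5 lower or 18.5%, beside 18.3% of others), 0.07 from 450 to 600 nt (19 genes, 1 lower, beside 16.3% of others), 0.12 from 600 to 900 nt (19 genes) and 0.61 above 900 nt (3 genes). In CT-26 the medians of the same classes, from short to long, were 0.06, 0.24, 0.38, 0.46 and 0.85.

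Other protein-coding genes in the same length classes showed the same order. Their B16 medians were -0.25, 0.02, 0.25, 0.37 and 0.54, from 195 genes in the shortest class to 2498 in the longest. Their CT-26 medians were -0.44, -0.33, -0.13, -0.02 and 0.21. Across genes, log2 coding length and log2 ratio had a Spearman rho of 0.51 over 78 members in B16 and 0.45 over 77 in CT-26, against 0.20 over 4051 and 0.22 over 4080 other genes. Genes of 1 library share its preparation and depth, so these are descriptions and not replicated relations. With total transcript length in place of coding length, rho over members was 0.28 and 0.33, and with GC content 0.09 and 0.26. Members lay below the other genes in the 4 shortest classes in B16 and above them in all 5 in CT-26, which scaling to all reads does not alter, as it shifts both by the same amount.

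**Figure D3:**
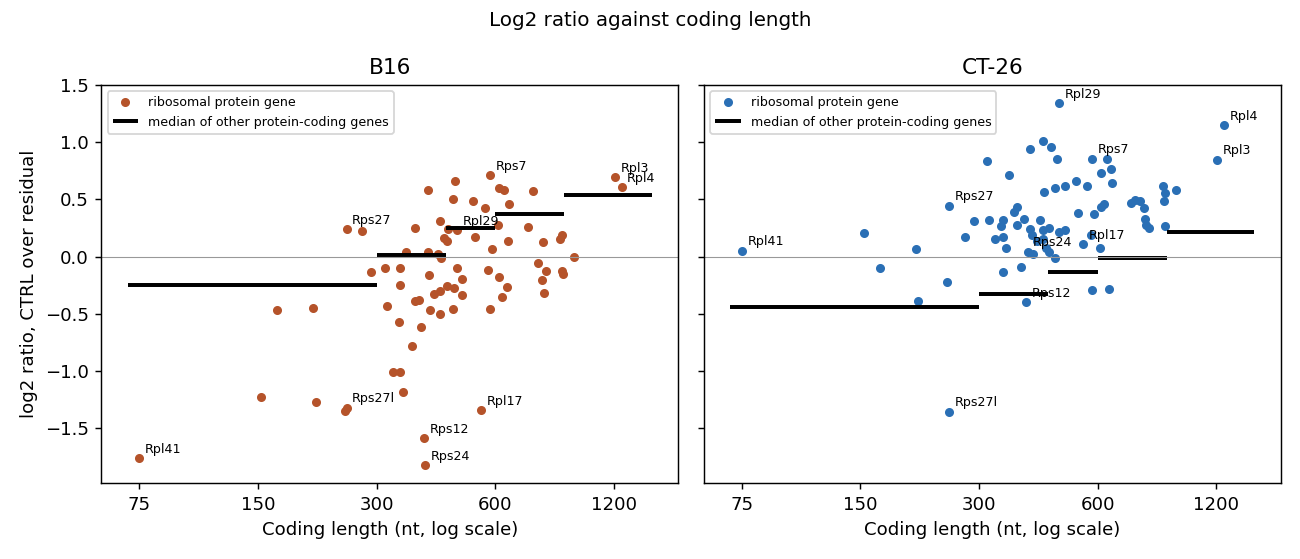
Log2 ratio of CTRL over residual normalized counts against coding length (log scale) for the members at level (points) in B16 and CT-26, with the median of other protein-coding genes in each length class (black bars). Points and bars both lie higher at greater length; 8 of the 10 members of at most 300 nt lie below 0 in B16 (scaled to all reads, every B16 point and bar is 0.84 higher), and Rps27l stands alone below -1 in CT-26.

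Rps27l was the 1 member called in both models. Rps27l (ENSMUSG00000036781, chromosome 9, 66946086 to 66949516, mm10) encodes a paralog of Rps27 known as a target of p53. Its normalized counts were 2683 and 1073 in B16, residual first, and 4375 and 1709 in CT-26, from 2054, 1402, 3370 and 2219 reads. In each model the residual library was the higher. The log2 ratio was -1.32 (-1.42 to -1.22) in B16 and -1.36 (-1.43 to -1.28) in CT-26. Scaled to all reads, the B16 value is 0.84 higher and no longer reaches the rule. Calls in both models were lower for 7.44% and higher for 8.71% of the 8765 genes at level in both.

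Rps27, with which Rps27l shares most of its protein sequence, went the other way. It had 19352 and 22833 normalized counts in B16 and 27469 and 37386 in CT-26, at log2 ratios of 0.24 and 0.44. The start windows printed above differ as well, with a pyrimidine run across the annotated start of Rps27 and one ending before that of Rps27l.

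Rpl3l, the form of Rpl3 known from heart and skeletal muscle, was read at a low level and lower in both CTRL libraries. It had 170 and 40 reads in B16 residual and CTRL and 130 and 7 in CT-26, or 222 and 30.6 normalized counts and 169 and 5.39. The log2 ratios were -2.82 (-3.39 to -2.35) and -4.73 (-6.31 to -3.88), but under 10 CPM in every library it was outside the rule. Rpl39l, known from male germ cells, had 7, 1, 7 and 22 reads, too few to give a direction. Rpl36al had 153, 236, 419 and 736 reads and log2 ratios of -0.14 and 0.06, with counting intervals that span 0 in both models. Its parent Rpl36a was at -0.43 and 0.32.

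Rpl22, which mouse alpha-beta T cells need to develop, was at -0.38 in B16 and -0.09 in CT-26. Its paralog Rpl22l1 was at 0.35 and 0.13. Rpl7 was at -0.12 and 0.25, and Rpl7l1 at 1.46 and 0.30, the former value past 2-fold. Rpl10 was slightly lower in CTRL in both models, at -0.26 and -0.28.

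The models were set side by side through the ratio within each, because the tables were normalized separately. Of 77 members at level in both, 31 were above 0 in both, 10 below 0 in both, 36 below 0 in B16 and above 0 in CT-26, and 0 the reverse. Over the 8765 genes at level in both models, these shares were 53.1%, 22.8%, 7.64% and 16.5%. The log2 ratio was larger in CT-26 for 69 members, by over 1 for 11 of them, beside 34.2% of all genes. The median difference, CT-26 minus B16, was 0.45 over members and -0.30 over all genes. Scaled to all reads, the B16 ratios move up by 0.84 and the CT-26 ratios by 0.19, so that the members' median difference takes the opposite sign. With 1 library per group the difference between the models was not tested.

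Members kept a similar order in both models. Over 77 members the ratios in B16 and CT-26 had a Spearman rho of 0.73 and a Pearson r of 0.68, against a rho of 0.62 over all 8765 genes; no library is shared between the models. Rps24, Rpl41, Rpl17, Rpl39 and Rpl34 were the 5 members whose ratio was higher in CT-26 by most, by 1.26 to 1.87 on the log2 scale. The largest difference the other way was 0.21 lower in CT-26, for Rpl13a, followed by Rps13, Rpl27a, Rps6 and Rpl37a. All 5 of these were above 0 in both models.

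To compare levels between models without either normalization, the reads of each member were taken per 100 reads of all members. Rpl13 took 3.72% and 5.81% of member reads in B16, residual first, and 4.69% and 6.26% in CT-26. Rps9 took 3.90%, 2.96%, 5.01% and 3.02%, in the same order. Most members kept a like share in both models. Of 78 compared, 3 were at least 2-fold lower in CT-26 in both populations and 0 at least 2-fold higher. Put on the same scale, 1.43% of 9974 genes were lower and 19.3% higher. Members took a smaller share of reads in CT-26 than in B16 in both populations, so dividing by member reads raises other genes in CT-26. These shares are therefore not a level background for the members' counts.

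Rpl29 differed most. Rpl29 (chromosome 9, 106429454 to 106431568, mm10), a large-subunit protein also known to bind heparin, had 3740 and 7478 reads in the B16 residual and CTRL libraries but 217 and 929 in CT-26. That is 0.474% and 0.579% of member reads in B16 and 0.0258% and 0.0485% in CT-26, a log2 ratio of -4.20 between the residual and -3.58 between the CTRL libraries. Both B16 libraries lay above both CT-26 libraries. Within CT-26 it was also the member at level with the highest ratio, with 282 and 716 normalized counts and a log2 ratio of 1.34 (1.13 to 1.57). It was at 4.27 CPM in CT-26 residual and 12.4 CPM in CT-26 CTRL. It thus lay near the 10 CPM limit and reached it only through the library where it was high.

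Rpl26 (chromosome 11, 68901583 to 68906989), known to bind p53 mRNA, had 6473, 8940, 954 and 1783 reads, which is 0.820% and 0.692% of member reads in B16 and 0.113% and 0.0930% in CT-26. The log2 ratio between models was -2.85 for the residual and -2.90 for the CTRL libraries. Rpl21 took 1.09% and 1.06% in B16 and 0.524% and 0.449% in CT-26, at -1.06 and -1.24. Rpl35a came next, at -1.57 between the residual and -0.91 between the CTRL libraries.

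Named pseudogenes of ribosomal proteins differed between models too. In all, 289 of them held 13935, 19152, 18244 and 37814 reads, or 1.77, 1.48, 2.17 and 1.97 for each 100 member reads. The 3 pseudogenes named for Rpl29 had 5, 7, 6 and 8 reads and the 6 named for Rpl26 had 25, 22, 53 and 60. Such counts hold only pseudogenes with an Rpl or Rps name, and reads that match several copies were not examined. Rps2-ps10 had 113 and 117 reads in B16 and 2969 and 9183 in CT-26, Rps3a2 had 96, 218, 1680 and 3992, and Rpl3-ps1 had 358, 828, 1111 and 4095. The part of these copies in the values of their parent genes was not tested.

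**Figure D4:**
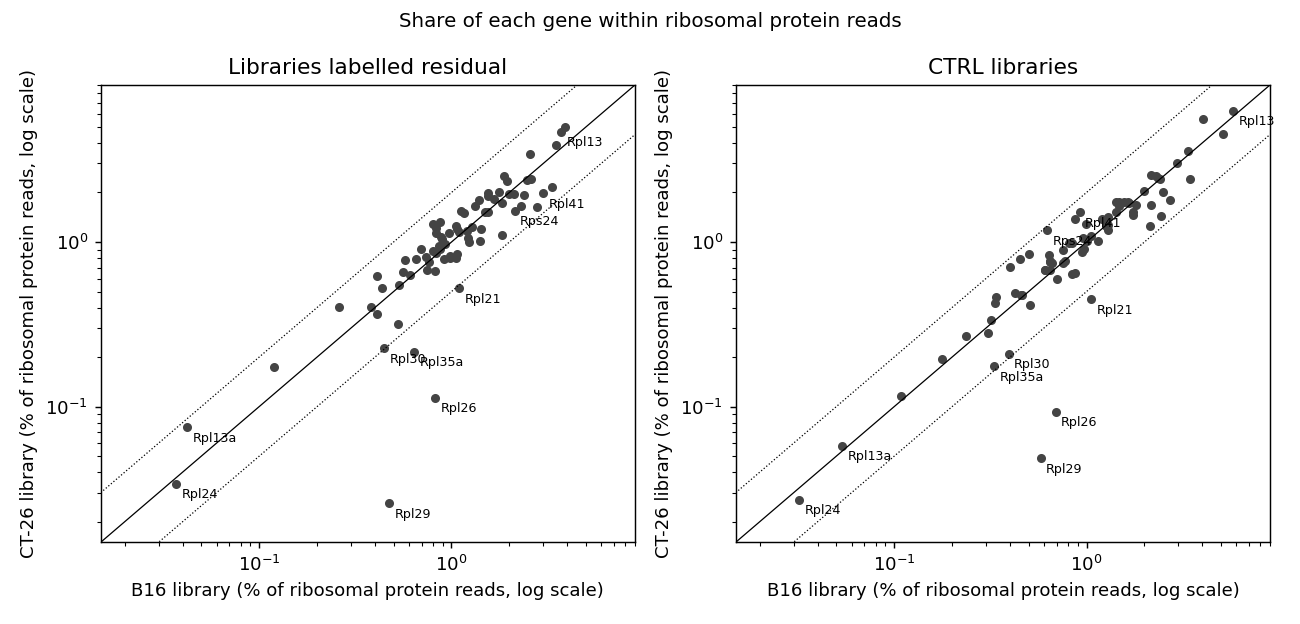
Share of each member within all ribosomal protein reads in the CT-26 library against the B16 library of the same population (both axes in percent on log scales), with the line of equality and dotted lines at 2-fold. Rpl29, Rpl26 and Rpl21 lie below the lower dotted line in both panels (0.0258% to 0.524% in CT-26), and no member lies above the upper one in both.

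Fau and Rack1, whose products sit on the ribosome without an Rpl or Rps name, differed in their place beside the list. Rack1 lay within the members' quartiles in both models, and Fau lay below them in both. Fau, whose product is a ubiquitin-like fusion to a small-subunit protein, was at -0.90 in B16 and -0.49 in CT-26, from 17128 and 9185 and from 17222 and 12264 normalized counts. Rack1, a scaffold on the small subunit, was at -0.21 and 0.17.

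Genes that build ribosomes had medians above 0 in both models. Of 30 biogenesis genes, all at level, 10 were called higher and 0 lower in B16, with a median log2 ratio of 0.68, and 13 higher and 0 lower in CT-26, with a median of 0.84. Of all genes, 26.8% were called higher in B16, near the share in the list, and 14.5% in CT-26. Called lower were 11.7% and 16.3% of all genes. In each model 29 of 30 were above 0, beside 69.5% and 60.3% of all genes. The genes called in both were Bop1, Dkc1, Polr1b, Polr1e, Rrn3, Rrp12 and Tcof1. Polr1b, a subunit of RNA polymerase I, was at 1.997 and 1.25, and Tcof1, a nucleolar factor for rRNA transcription, at 1.13 and 1.27. Ncl, the abundant nucleolar protein nucleolin, was at 0.25 and 0.56.

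The mitochondrial ribosome list had its higher median in B16. Of 78 genes, 77 were at level in B16 with a median of 0.54, 14 called higher and 1 lower. Both counts are fewer than the 26.8% and 11.7% of all genes. In CT-26, 76 were at level with a median of 0.15, 1 called higher and 1 lower, beside 14.5% and 16.3% of all genes. The gene lower in both was Mrpl33, at -1.74 and -1.82. Cytosolic members thus lay below the mitochondrial list in B16 and above it in CT-26, a difference that no common scaling changes and that was not tested.

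Translation factors and other TOP mRNAs were mixed. Of 21, 1 was called higher and 3 lower in B16 (all genes 26.8% and 11.7%), with a median of 0.27. In CT-26, 0 were called in either direction (all genes 14.5% higher and 16.3% lower), with a median of 0.37. Eef1a1, the factor that brings aminoacyl-tRNA to the ribosome, had 61247 and 86247 normalized counts in B16 and 71311 and 142042 in CT-26, at 0.49 and 0.99. Eef2, which moves the ribosome along, was at -0.01 and 0.63. Pabpc1, the poly(A)-binding protein and a TOP mRNA, had 100776 and 14572 in B16 and 34443 and 25866 in CT-26, at -2.79 and -0.41. Tpt1 was at -1.21 and -0.08 and Eef1d at -1.07 and 0.25, so the B16 residual library was the high one for all 3.

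Of 12 regulators, 2 were called higher and 1 lower in B16, and 4 higher and 1 lower in CT-26. The shares of all genes were 26.8% higher and 11.7% lower in B16, and 14.5% and 16.3% in CT-26, so the B16 counts are no more than those. Eif4ebp2 was at -0.04 and 0.41. Myc, which drives ribosomal genes, was at 1.604 and 1.41, from 1678 and 5102 and from 4377 and 11593 normalized counts. Larp1, the TOP-binding repressor, was at 0.84 and 0.70, and Mtor at 0.89 and 1.33. Tsc2, an inhibitor of mTOR complex 1, was at 1.09 and 1.08. Eif4ebp1, an mTOR substrate that blocks cap-dependent translation, was lower in both, at -1.67 and -2.92. Scaled to all reads, every B16 value given for these lists is 0.84 higher, and the sign then turns for Rack1, Eef2 and Eif4ebp2.

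**Figure D5:**
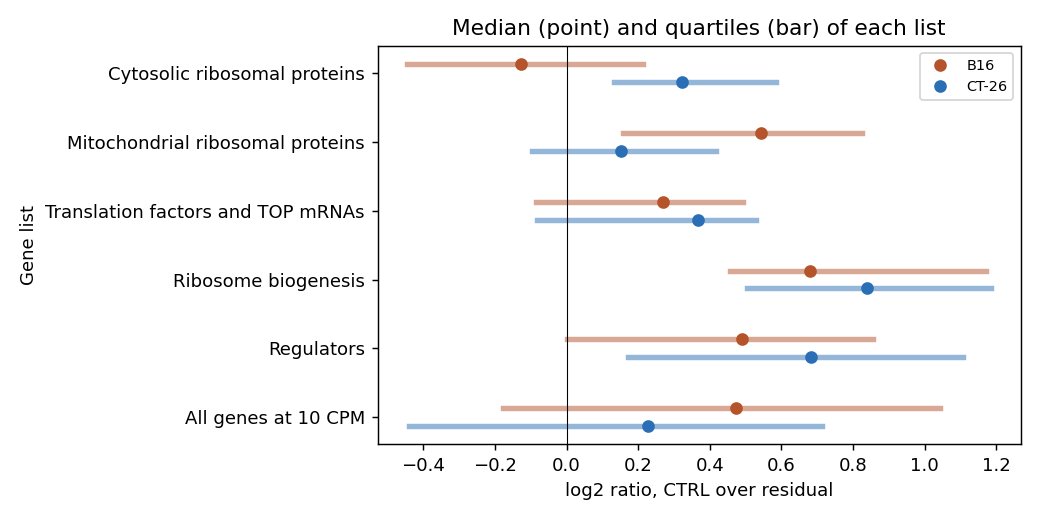
Median (points) and quartiles (bars) of the log2 ratio of CTRL over residual normalized counts for each gene list and for all genes at 10 CPM, in B16 and CT-26. The cytosolic list is the 1 list with its median below 0 in B16 (-0.13), where scaling to all reads would put every B16 point 0.84 higher; the biogenesis list has the highest median in both models (0.68 and 0.84).

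A fit across all genes with a residual degree of freedom is possible only over both models. Its first test sets CTRL against residual over both models, with the model as a term, on the raw counts of all 4 libraries and 1 residual degree of freedom. In edgeR's quasi-likelihood test with Benjamini-Hochberg adjustment, 0 of 80 members tested passed an adjusted p of 0.05 in either direction, as did 0.0% of 18749 genes. At an unadjusted p under 0.05, 2 members were lower and 0 higher, beside 9.72% of all genes lower and 16% in either direction. They were Rps27l, at -1.49 (edgeR adjusted p = 0.224), and Rpl3l, at -3.99 (edgeR adjusted p = 0.242), each lower in CTRL in both models. DESeq2's Wald test gave 1 member of 80, Rpl3l, at -3.92 with an adjusted p of 0.00148, beside 9.05% of 19887 genes, and left Rps27l at an adjusted p of 0.0792. Over 9 alternatives the adjusted p ran from 0.0792 to 0.940 for Rps27l and from 0.00148 to 1 for Rpl3l.

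For the model term of the same edgeR fit, CT-26 against B16, 0 members and 0.0% of genes passed an adjusted p of 0.05. At an unadjusted p under 0.05, 12 members were lower in CT-26 and 0 higher, beside 3.87% of genes lower and 8.38% in either direction. Rpl26 was at -3.60 and Rpl29 at -4.61, both with an edgeR adjusted p of 0.414.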

How the data were processed

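The members and gene lists were chosen with earlier results of these data known. Libraries were made with a Takara SMART-Seq v4 kit, per the labels' protocols. STAR 2.7.3a, HTSeq 0.11.2, DESeq2 and the build mm10 are named without roles, per the submitters' processing notes. The strand setting of the counting was not given in any source used, and 18 members overlap an exon of another gene with reads. The authors deposited raw read counts per gene for each library. The normalized signal that the authors deposited equals those counts divided by a size factor, 0.766 for residual and 1.31 for CTRL in B16, and 0.770 and 1.30 in CT-26. The log2 folds and p-values of the authors' deposited table were used only as an alternative measure of the fold, and their p-values are not printed. Each model was normalized on its own.

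From these, log2 ratios were computed with a pseudocount of 1 within a model, and CPM from the raw counts and the reads in genes. Intervals of ratios are exact conditional binomial and, like those of shares, at 95% and for counting error only. At these depths 10 CPM is 391 reads for residual and 372 for CTRL in B16, and 508 and 749 in CT-26. Named genes were called members, the 5 highest and 5 lowest ratios per model, the 8 highest mean CPM, the 5 largest differences between models each way, paralog pairs, and up to 3 genes of each other list; Rpl26, Rpl21, Rpl35a, Rplp1, Rpl5, Rpl11, Rpl24 and the pseudogenes, and other list genes such as Mrpl33, were added after their values were seen. Some genes that the rule takes are not reported here. Coding and transcript lengths and exons are from GENCODE M21 on mm10. The fit over all 4 libraries used edgeR 4.0.16 (quasi-likelihood, TMM, filterByExpr) in R 4.3.3, with DESeq2 1.42.0 as an alternative, Benjamini-Hochberg adjustment over all genes, and terms for population and model. Nothing says that libraries are from separate animals. The p-values of the fit over all 4 libraries are set against how far the CTRL-to-residual difference disagrees between B16 and CT-26. They do not measure a spread between replicate libraries or animals. The test of the model term and the fits that leave out a library were chosen after seeing the data. Scripts ran in Python 3.11.15 and were tested on simulated data.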

Additional observations from a re-analysis of the deposited data

Results flagged for a closer look

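The median log2 ratio of CTRL over residual of the ribosomal protein genes had opposite signs in the models, at -0.13 in B16 (78 genes) and 0.32 in CT-26 (77 genes). The difference was not tested, since each group is 1 library. The share of haemoglobin reads in the residual library was 42.0% in B16 and 10.8% in CT-26; its part in the difference was not tested.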

How the results depend on the processing

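The choice of scaling mattered most. Scaled to all reads in genes, the members' median log2 ratio was 0.72 in B16 and 0.51 in CT-26. By the rule of size 23 members were then higher and 0 lower in B16, and 10 higher and 1 lower in CT-26. The median of all genes moved up with it, by 0.84 and 0.19, to 1.315 in B16, past the limit of the rule, and 0.42 in CT-26. The share of all genes called under that scaling was not counted. Without haemoglobin reads the medians were -0.052 and 0.36, with TMM factors -0.18 and 0.29, by the authors' deposited table -0.12 and 0.29, and over all members with a read -0.13 and 0.31. At a 1.5-fold limit 5 members were higher and 13 lower in B16, and 20 higher and 1 lower in CT-26. Of members 76.9% and 72.7% lay within that limit, against 38.9% and 47.0% of all genes at level. With no filter on level 13 members were lower in B16 and 2 in CT-26. Within member reads the median log2 ratio of shares was -0.07 in B16 and -0.11 in CT-26, or 0.067 and -0.012 over the geometric mean and -0.038 and -0.095 without the member with most reads. The share of reads in members, for B16 and then CT-26, residual first, was 3.49%, 3.52%, 1.86% and 2.58% outside haemoglobin genes. It was 3.70%, 3.66%, 1.93% and 2.65% of protein-coding reads without haemoglobin and mitochondrially encoded genes, and 2.06%, 3.53%, 1.69% and 2.61% with named pseudogenes added. DESeq2 gave 1 lower member where edgeR gave 0; over all genes edgeR called 0, or 167 higher and 820 lower with no filter on low counts, and DESeq2 300 higher and 1499 lower. With each library left out in turn, and no model term, edgeR gave 0 to 0 members past the threshold in either direction; the group with a lone library is then assumed to vary like the other. Over all genes these fits called 0 in either direction without B16 residual or CT-26 residual, 24 higher and 527 lower without B16 CTRL, and 0 and 11 without CT-26 CTRL; the cause was not tested. For the single genes named, 258 values under an alternative stayed within their limit and 210 moved. The labels carry no replicate numbers, and the pairing of libraries by model is the model term of the fit; without that term edgeR also gave 0 members. Depth limits Rpl3l, Rpl39l and Rpl36al, which are under 10 CPM in every library.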
